A study of Mus musculus with 17 samples.

Results

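The genes followed here in the mouse diaphragm, the muscle that drives breathing, encode 6 heavy chains of skeletal muscle myosin: Myh1, Myh2, Myh4, Myh7, Myh3 and Myh8. They were chosen by name, as the adult fast, adult slow, embryonic and neonatal isoforms, and all 6 were among the 47643 gene symbols of the expression table. RNA was sequenced from diaphragm muscle, freed of its tendon, of 17 male C57BL/6J mice, 4 months old. There were 5 mice in Control, 5 in Control + rFibcd1, 3 in LLC and 4 in LLC + rFibcd1. The LLC groups bore tumors of Lewis lung carcinoma, a mouse cell line placed under the skin of both flanks, and the Control groups had none. rFibcd1 is a recombinant C-terminal fragment of mouse Fibcd1, a protein with a fibrinogen-like domain, and was injected into the peritoneal cavity, which borders the diaphragm. The mice without rFibcd1 received mock injections of saline with albumin. The comparisons asked how a tumor at another site changes diaphragm gene expression and whether rFibcd1 alters that change. Each mouse gave 1 library, none was left out, and the depth recovered from the values was about 50800000 to 54600000 reads per library. The deposited values were transcripts per 1000000 (TPM), which are scaled for gene length, so levels of different genes can be set side by side.

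Myosin heavy chains form the thick filament of the sarcomere, and their head domains hydrolyse ATP and pull on actin. Which heavy chain a fibre makes sets its contraction speed and defines its type. Myh7 marks slow type I fibres, Myh2 fast oxidative type IIa fibres, Myh1 fast type IIx fibres and Myh4 the fastest and most glycolytic type IIb fibres. Myh3 and Myh8 encode the embryonic and neonatal chains, which are replaced after birth and return transiently in regenerating fibres. The mouse diaphragm is a mixed muscle that works continuously, in which type IIx and IIa fibres prevail.

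Of the members, 5 lie side by side on the plus strand of chromosome 11, in the order Myh3 (chr11:67078300-67102291), Myh2 (chr11:67171027-67197517), Myh1 (chr11:67200052-67224575), Myh4 (chr11:67238029-67260446) and Myh8 (chr11:67277124-67308634), in GRCm38 coordinates of the GENCODE vM21 annotation. Myh7 lies apart, on the minus strand at chr14:54970684-54994626. Their coding sequences are close relatives: Myh1 and Myh2 were identical at 91.1% of aligned coding bases, Myh1 and Myh4 at 90.2%, and Myh7 at 77.2% to 78.0% with each of the other 5. Of all 100-base windows of the main transcript, 9.73% in Myh1, 9.17% in Myh2, 3.85% in Myh4, 6.61% in Myh8 and 1.15% in Myh3 occurred unchanged in another gene. For Myh1 and Myh2 the main partner was the other of the pair, and for Myh3 it was Myh13, the extraocular isoform. Myh8 shared 3.37% of its windows with Myh2, 2.63% with Myh1, 2.02% with Myh13 and 1.44% with Myh4. For Myh7 the share was 11.2%, all of it with its neighbour Myh6, the cardiac alpha heavy chain. Reads from such windows could be assigned to either gene, so small differences between close relatives are uncertain.

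The promoters of 4 neighbours are shown because they share a run of bases that no other promoter of the table holds, although the genes differed widely in level. All 6 members matched the RefSeq promoter table (GRCm38.p6, 250 bases before to 50 after the transcription start). Each promoter is written 5′ to 3′ on the gene's strand, and capitals mark the run TTCTAATTATATCC and the TATA sequence TATAAAAG. These are Myh1 (chr11:67199852-67200151), Myh2 (chr11:67170777-67171076), Myh4 (chr11:67237562-67237861) and Myh8 (chr11:67276874-67277173), all on the plus strand.
Myh1: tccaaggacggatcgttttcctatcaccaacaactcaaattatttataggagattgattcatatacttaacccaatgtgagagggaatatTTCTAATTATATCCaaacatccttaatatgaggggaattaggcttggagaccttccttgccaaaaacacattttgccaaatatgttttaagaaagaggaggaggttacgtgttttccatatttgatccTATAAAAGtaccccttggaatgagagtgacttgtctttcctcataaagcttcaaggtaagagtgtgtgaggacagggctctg
Myh2: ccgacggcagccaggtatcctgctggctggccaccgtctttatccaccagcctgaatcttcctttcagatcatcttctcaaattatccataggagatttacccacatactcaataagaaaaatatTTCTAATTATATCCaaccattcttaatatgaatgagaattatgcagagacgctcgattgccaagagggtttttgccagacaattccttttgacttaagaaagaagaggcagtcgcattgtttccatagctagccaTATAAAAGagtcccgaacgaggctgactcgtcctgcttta
Myh4: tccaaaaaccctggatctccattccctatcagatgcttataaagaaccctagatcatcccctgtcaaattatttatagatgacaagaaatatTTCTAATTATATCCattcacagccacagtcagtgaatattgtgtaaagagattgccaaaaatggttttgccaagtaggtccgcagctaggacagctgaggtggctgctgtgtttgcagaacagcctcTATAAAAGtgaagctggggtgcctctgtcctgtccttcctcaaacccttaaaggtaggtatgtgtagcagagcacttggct
Myh8: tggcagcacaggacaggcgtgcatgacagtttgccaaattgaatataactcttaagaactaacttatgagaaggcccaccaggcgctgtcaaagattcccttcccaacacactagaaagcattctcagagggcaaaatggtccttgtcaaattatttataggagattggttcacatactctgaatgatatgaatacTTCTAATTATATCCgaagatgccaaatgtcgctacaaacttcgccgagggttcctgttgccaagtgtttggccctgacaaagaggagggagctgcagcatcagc

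The run TTCTAATTATATCC began at position -160 in Myh1, -125 in Myh2, -158 in Myh4 and -54 in Myh8, counted from the RefSeq start. On either strand it occurred in 4 of 27025 promoters (0.0148%), and those 4 were the ones printed. In Myh1, Myh2 and Myh4 it was part of a longer shared run, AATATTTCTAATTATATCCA, found in those 3 promoters (0.0111%). Another run, CAAATTATTTATAG, occurred in Myh1, Myh4 and Myh8 and in no other promoter of the table (0.0111%). TATAAAAG began at -32 in Myh1, -31 in Myh4 and -29 in Myh3, but at 11 in Myh2, after the annotated start, and it occurred in 1.84% of promoters. The E-box CANNTG, the core site of MyoD-type factors, was present in 4 of the 6 members (Myh3, Myh4, Myh7 and Myh8) and in 72.1% of all promoters. The MCAT sequence CATTCC was present in Myh1, Myh4 and Myh7 and in 14.6% of promoters. The shared runs were picked after the sequences were seen, and a match describes the letters, not a bound site.

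The 6 isoforms spanned more than 4 orders of magnitude. Over all 17 mice the median was 4088 TPM for Myh1, 1459 TPM for Myh2, 978 TPM for Myh4 and 329 TPM for Myh7, against 0.162 TPM for Myh8 and 0.0804 TPM for Myh3. Myh1 was above Myh2 in 17 of 17 mice and Myh2 above Myh7 in 17 of 17. The order of Myh2 and Myh4 was less firm, with Myh2 higher in 14 of 17 mice: Myh4 was the higher in 2 Control + rFibcd1 mice and in 1 LLC mouse. Myh4 exceeded Myh7 in 16 of 17 mice, the exception being Control replicate 4. At the bottom, Myh8 exceeded Myh3 in 14 of 17. The 4 adult isoforms therefore passed the filter for testing (at least 1 TPM in at least 3 samples, 13305 genes), and Myh3 and Myh8 did not. Behind these values stood between 36932 and 816607 recovered reads per mouse for each adult isoform, but only 5 to 107 for Myh3 and 31 to 176 for Myh8.

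**Figure D1:**
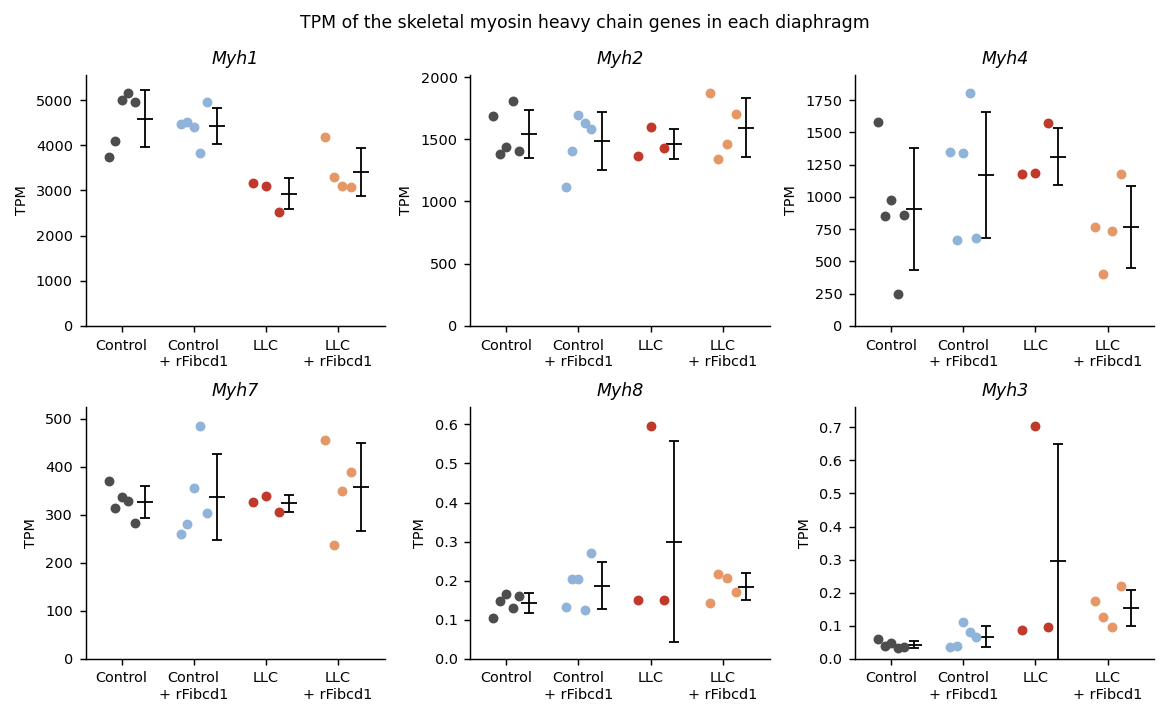
TPM of each isoform (vertical axes, linear, each panel on its own scale) in each mouse (points), by group, with the mean and SD of the group beside the points (the SD bar of Myh3 in LLC is cut at 0). Myh1 lies between 2527 and 3166 TPM in the LLC mice and between 3744 and 5154 TPM in the Control mice, and 1 LLC mouse stands above all others in Myh3 and Myh8.

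Myh1, the IIx isoform and the most abundant, was the 1 member of the 4 tested whose level passed the test in LLC vs Control and over both tumor groups. Its TPM in the Control mice was 3744, 4088, 5009, 5154 and 4954, and in the LLC mice 3166, 3100 and 2527. Every LLC mouse was below every Control mouse. On the log2(TPM + 1) scale Myh1 fell by 0.64 ± 0.13 (SE) in LLC vs Control, that is by 36.0%, with a 95% interval of -0.91 to -0.37 (limma, adjusted p = 0.0093). Across all genes tested, 35.8% were called in this comparison, 6.02% lower and 29.7% higher, and 6.67% had lower values in LLC without overlap between the groups. The median of all genes was itself higher in LLC, by 0.16, so that Myh1 lay at -0.80 relative to it. That split depended on the scaling: median-ratio scaling gave 15.3% lower and 14.4% higher, and quantile normalization 23.9% lower and 11.3% higher, with Myh1 called lower in both. Without LLC replicate 3, which had the lowest Myh1 of all 17 mice, the difference was -0.54 (adjusted p = 0.0697), and the genes called over the whole table went from 4759 to 24 (0.18%), so the loss was not particular to Myh1. Without LLC replicate 1 there were 2272. LLC replicate 3 also held the most smooth muscle marker RNA (542 TPM summed, against 187 and 193 TPM in the other LLC mice), and the part of this in its Myh1 value was not tested.

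Over both tumor groups (n = 7) against both tumor-free groups (n = 10), Myh1 fell by 0.50 ± 0.085 on the log2 scale, or by 29.3% (95% interval -0.68 to -0.32, adjusted p = 0.00129). In this comparison 44.8% of all genes were called, 5.98% lower and 38.8% higher, which became 18.3% lower and 17.8% higher with median-ratio scaling and 25.0% lower and 13.7% higher with quantile normalization. Here 6 of the 7 tumor-bearing mice were below the lowest tumor-free mouse, and LLC + rFibcd1 replicate 1 (4180 TPM) was within the tumor-free range. The call held with each of the 17 mice left out in turn, with adjusted p from 0.000854 to 0.00468.

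In tumor-bearing mice that received rFibcd1, Myh1 stood at 4180, 3298, 3090 and 3071 TPM. The group mean was 3410 ± 524 (SD, n = 4) TPM, between 2931 ± 352 (n = 3) in LLC and 4590 ± 631 (n = 5) in Control. The rise from LLC to LLC + rFibcd1 of 0.21 ± 0.13 did not pass the test (adjusted p = 0.302), and its interval, -0.068 to 0.50, included 0. Against the same Control mice, the difference for LLC + rFibcd1 was -0.43 ± 0.12, which also missed the threshold (adjusted p = 0.0591). That comparison called 3.08% of all genes, and Myh1 passed it without Control replicate 1 (adjusted p = 0.0385) or without LLC + rFibcd1 replicate 1 (adjusted p = 0.0294). In tumor-free mice rFibcd1 left Myh1 at 4470, 4516, 4405, 3836 and 4951 TPM, a difference of -0.043 ± 0.11 from Control with an interval of -0.28 to 0.19. The interaction, the difference between the rFibcd1 effects in the presence and the absence of a tumor, was 0.26 ± 0.17 for Myh1 (adjusted p = 0.675).

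**Figure D2:**
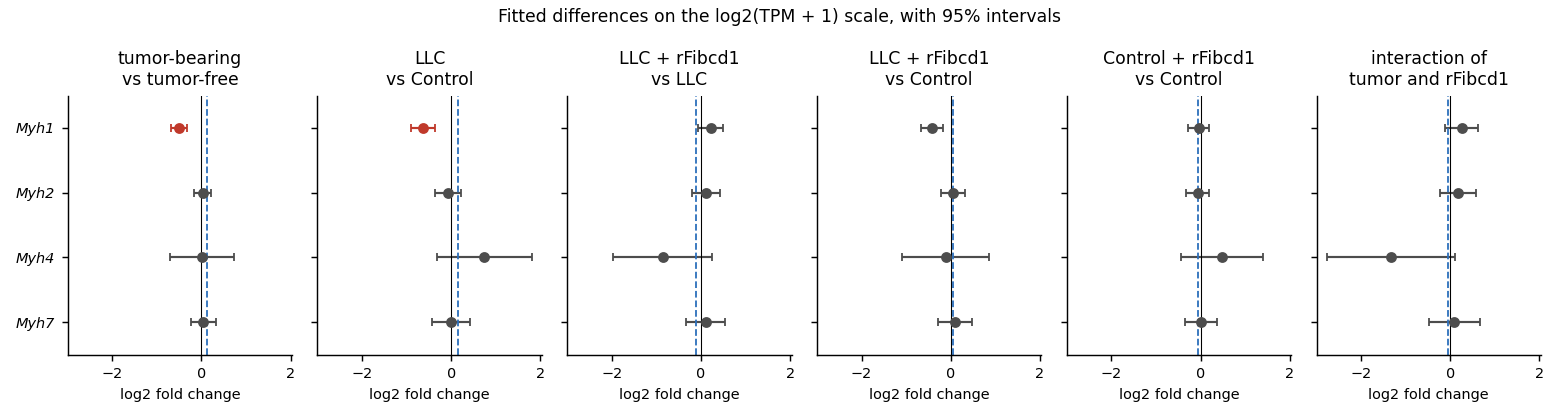
Fitted log2 fold changes of the 4 adult isoforms (horizontal axis, log2(TPM + 1) scale) with 95% intervals, in 6 comparisons. Red marks an adjusted p below 0.05, the solid line is 0 and the dashed line the median of all 13305 genes. Myh1 is red in tumor-bearing vs tumor-free and in LLC vs Control, and Myh4 has the widest intervals.

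Myh2, the IIa isoform, did not pass in any comparison. The Control mice held 1685, 1383, 1436, 1805 and 1406 TPM and the LLC mice 1364, 1596 and 1426 TPM, with overlapping ranges. The difference was -0.072 ± 0.14 on the log2 scale, with an interval of -0.37 to 0.22 (adjusted p = 0.704). LLC + rFibcd1 mice held 1871, 1339, 1459 and 1706 TPM, which gave 0.12 ± 0.15 against LLC (interval -0.19 to 0.42). Control + rFibcd1 mice spanned 1115 to 1695 TPM. Its sign over both tumor groups turned with the scaling of the libraries, from 0.025 as deposited to -0.14 with median-ratio scaling, and no setting called it.

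Myh7, the slow isoform, did not pass in any comparison either. Its TPM was 371, 313, 336, 329 and 282 in Control and 327, 339 and 305 in LLC. The LLC range lay inside the Control range, and the difference was -0.0080 ± 0.20 (interval -0.43 to 0.41, adjusted p = 0.977). Spread was wider with rFibcd1: 260 to 485 TPM in Control + rFibcd1 and 236 to 456 TPM in LLC + rFibcd1, or coefficients of variation of 26.6% and 25.7%, against 9.92% in Control and 5.33% in LLC. A single mouse carried each of the wider spreads: the coefficient was 13.7% without Control + rFibcd1 replicate 4 (485 TPM) and 13.5% without LLC + rFibcd1 replicate 2 (236 TPM). That of LLC was 2.65% without LLC replicate 3. The spreads were not tested against each other.

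Myh4, the IIb isoform, had the widest fitted intervals. Control mice ranged from 246 to 1582 TPM, with values of 1582, 855, 978, 246 and 864, and a coefficient of variation of 52.5%, or 32.3% without Control replicate 4. In LLC the coefficient was 17.1%, or 0.275% without LLC replicate 3. LLC mice held 1181, 1186 and 1571 TPM and LLC + rFibcd1 mice 763, 404, 732 and 1177 TPM. The highest LLC + rFibcd1 mouse, at 1177 TPM, was just below the lowest LLC mouse at 1181 TPM, so the ranges did not overlap, as was true in the lower direction for 9.3% of all genes. The model gave -0.86 ± 0.52 for LLC + rFibcd1 vs LLC (interval -1.96 to 0.25, adjusted p = 0.296) and 0.74 ± 0.50 for LLC vs Control (interval -0.31 to 1.80, adjusted p = 0.243). Its interaction, -1.33 ± 0.67, was the largest in size among the 4 isoforms (adjusted p = 0.617). With 3 to 5 mice a group and this spread, differences of this size were not resolved. None of the 4 tested members passed in LLC + rFibcd1 vs LLC, where 0.113% of all genes did, and none in Control + rFibcd1 vs Control or in the interaction, where 0 genes (0%) did. At an unadjusted p below 0.05, limma counted 584 genes in Control + rFibcd1 vs Control and 1142 in the interaction. Dunn's test with adjustment called 0 of 13305 genes in each of the 4 comparisons between 2 groups, LLC vs Control included.

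The summed TPM of the 6 genes was lower in the LLC mice. It was 7381, 6640, 7760, 7535 and 7506 in Control, 6038, 6222 and 5829 in LLC, and 7270, 5279, 5632 and 6343 in LLC + rFibcd1. No LLC sum reached the lowest Control sum, while LLC + rFibcd1 replicate 1 lay within the Control range. The mean sum fell by 1335 TPM from Control to LLC (18.1%), while Myh1 fell by 1659 TPM, Myh2 fell by 80.8 TPM and Myh4 gained 408 TPM. From LLC to LLC + rFibcd1 the mean sum differed by 101 TPM, since Myh1 gained 479 TPM and Myh2 132 TPM while Myh4 fell by 544 TPM. As a part of the whole library the 6 genes made up 0.528% to 0.779% of all TPM. These are differences of group means, given as a description.

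Isoform shares, each gene's percent of the summed TPM, do not depend on how a library is scaled. Myh1 made up 62.3% ± 6.90 (SD, n = 5) in Control, 59.9% ± 6.99 (n = 5) in Control + rFibcd1, 48.5% ± 4.68 (n = 3) in LLC and 55.8% ± 5.86 (n = 4) in LLC + rFibcd1. Myh2 made up 20.97% ± 2.42, 19.95% ± 2.53, 24.2% ± 1.55 and 26.0% ± 0.650 in the same order. Myh4 made up 12.3% ± 6.44, 15.6% ± 6.11, 21.9% ± 4.42 and 12.4% ± 4.63. Myh7 made up 4.44% ± 0.473, 4.52% ± 1.03, 5.36% ± 0.116 and 5.77% ± 0.864. These are group means, and the tests of their differences follow.

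**Figure D3:**
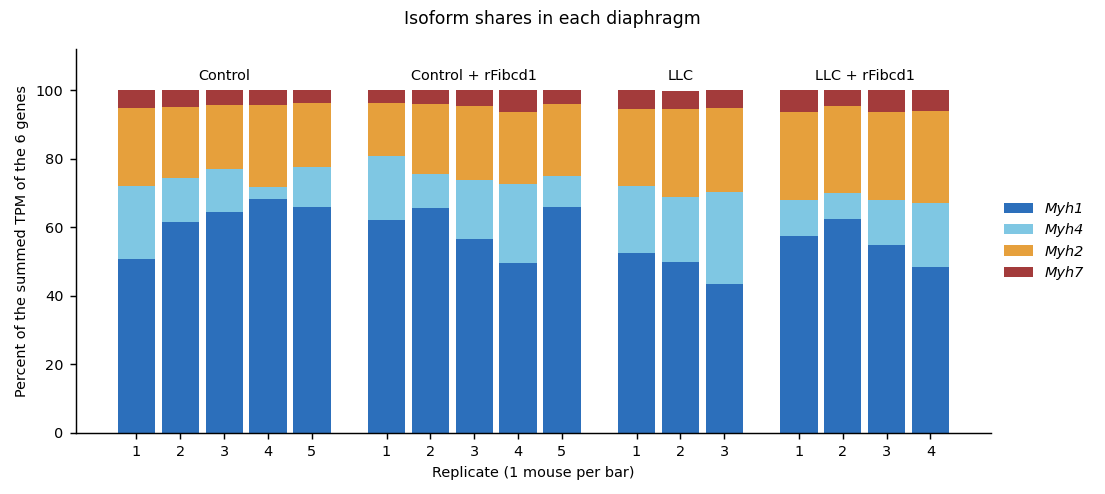
Percent of the summed TPM of the 6 genes (vertical axis) taken by Myh1, Myh4, Myh2 and Myh7 in each mouse (1 bar per mouse, by group and replicate). Myh3 and Myh8, at 0.0113% or less in every mouse, are too small to be drawn. The Myh1 part runs from 43.3% in LLC replicate 3 to 68.4% in Control replicate 4.

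Exact two-sided permutation tests over mice were run on the 6 shares in 5 comparisons, 30 tests in all, of which 12 gave an exact p below 0.05. The p-values are given as they are, unadjusted. Over both tumor groups against both tumor-free groups, Myh1 made up 52.7% against 61.1% (exact p = 0.0221), Myh2 25.2% against 20.5% (exact p = 0.00036) and Myh7 5.60% against 4.48% (exact p = 0.00807). Without LLC replicate 3 the Myh1 difference of shares was -6.85 percentage points (exact p = 0.0531). Myh4 made up 16.5% against 14.0% (exact p = 0.43). In LLC vs Control the Myh1 share of 48.5% against 62.3% gave an exact p of 0.0536, where 3 against 5 mice can give no less than 0.0179, and the Myh4 share of 21.9% against 12.3% an exact p of 0.107. The Myh1 share in LLC + rFibcd1 vs Control did not pass either (exact p = 0.190). Control replicate 1 had the lowest Myh1 share of its group, 50.7%, below the 52.4% of LLC replicate 1, so the groups overlapped. Without Control replicate 1 the Myh1 and Myh4 shares in LLC vs Control passed (exact p = 0.0286 for each). The Myh1 share also passed without LLC replicate 1 (exact p = 0.0476).

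For Myh7 in LLC vs Control the shares did not overlap (5.23% to 5.45% in LLC, 3.76% to 5.02% in Control, exact p = 0.0357). In LLC + rFibcd1 vs Control, Myh2 made up 25.4% to 26.9% against 18.5% to 24.0%, again without overlap (exact p = 0.0159, smallest possible 0.00794). Myh7 made up 5.77% against 4.44% there (exact p = 0.0317), which missed the threshold with any 1 mouse left out except LLC + rFibcd1 replicate 2 (exact p 0.0536 to 0.0857) and as a log ratio (exact p = 0.119). Shares add to 100%, so that a lower Myh1 share raises the others even at equal TPM. When each isoform was instead taken as a log2 ratio to the geometric mean of the 4 adult isoforms, Myh1 was still lower in tumor-bearing mice (-0.40, exact p = 0.0277). The Myh2 and Myh7 differences were then 0.13 (exact p = 0.279) and 0.15 (exact p = 0.0925). For Myh7 in LLC vs Control the sign turned (-0.014, exact p = 0.929), and for Myh2 in LLC + rFibcd1 vs Control the ratio was 0.14 higher and no longer passed (exact p = 0.437).

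No share passed in LLC + rFibcd1 vs LLC, where 4 against 3 mice can give no less than an exact p of 0.0286. The Myh4 share was 10.5%, 7.66%, 13.0% and 18.6% in LLC + rFibcd1 and 19.6%, 19.1% and 27.0% in LLC, without overlap (exact p = 0.0571). The Myh1 share averaged 55.8% against 48.5% (exact p = 0.143). In Control + rFibcd1 vs Control the exact p ranged upward from 0.143, with Myh1 at 59.9% against 62.3% (exact p = 0.611).

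The embryonic isoform Myh3 was close to the floor in every group but higher in tumor-bearing mice. Recovered reads were 9, 6, 7, 5 and 5 in Control, 5, 6, 17, 13 and 10 in Control + rFibcd1, 13, 107 and 14 in LLC, and 27, 19, 15 and 34 in LLC + rFibcd1. Every mouse of the tumor groups had more Myh3 reads than every Control mouse, while the Control + rFibcd1 range overlapped them. Of the genes past the filter, which Myh3 is not among, 3.86% lay higher without overlap in both tumor groups vs Control, 33.6% in LLC vs Control and 5.96% in LLC + rFibcd1 vs Control. In TPM, the LLC values were 0.0860, 0.704 and 0.0955 against 0.0330 to 0.0591 in Control, a 6.90-fold difference of means (exact p = 0.0179, the smallest possible). Without LLC replicate 2, which alone held 0.704 TPM, the ratio was 2.12-fold (exact p = 0.0476). In LLC + rFibcd1, with 0.0961 to 0.220 TPM, Myh3 was 3.60-fold above Control (exact p = 0.00794, the smallest possible). Both tumor groups together were 3.92-fold above the tumor-free mice (exact p = 0.00036), and 2.43-fold without LLC replicate 2 (exact p = 0.000874). Even the highest of these values was 0.0113% of the summed TPM. With so few reads per mouse, the size of the ratio is imprecise.

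**Figure D4:**
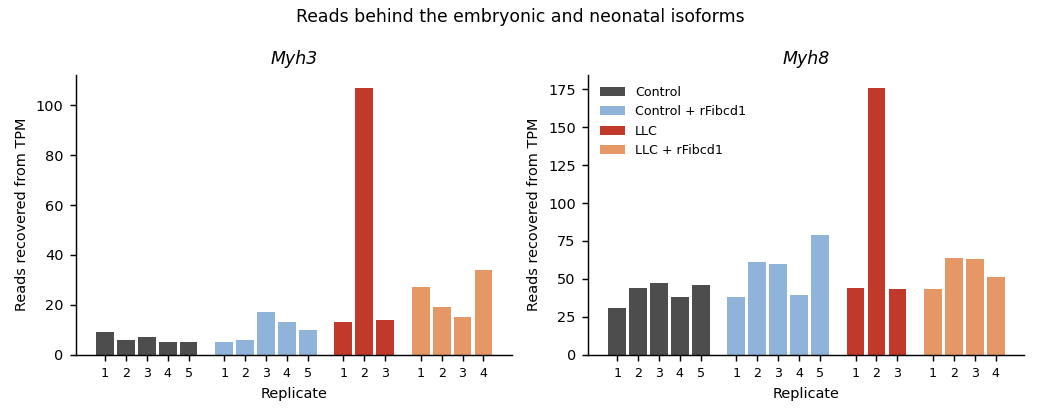
Reads behind Myh3 and Myh8 in each mouse (vertical axis, whole reads recovered from the TPM values; 1 bar per mouse, coloured by group). LLC replicate 2 has 107 Myh3 reads and 176 Myh8 reads, against at most 34 and 79 in the other mice.

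The neonatal isoform Myh8 was also highest in LLC replicate 2. Some of its windows also occur in Myh2, Myh1 and Myh4, which held far more reads, and the part of such reads in its counts was not tested. Myh8 had 31, 44, 47, 38 and 46 reads in Control, 38, 61, 60, 39 and 79 in Control + rFibcd1, 44, 176 and 43 in LLC, and 43, 64, 63 and 51 in LLC + rFibcd1. In TPM the difference between tumor-bearing and tumor-free mice was 1.42-fold (exact p = 0.211), and 1.05-fold without LLC replicate 2 (exact p = 0.728). Its share of the summed TPM passed in that comparison (exact p = 0.021) but not without LLC replicate 2 (exact p = 0.0887), and likewise in LLC vs Control (exact p = 0.0179, and 0.0952 without that mouse). In LLC + rFibcd1 vs Control, which does not hold that mouse, the Myh8 share passed as well (exact p = 0.0317), but its TPM did not (exact p = 0.0952), and the share missed the threshold with any 1 mouse left out except LLC + rFibcd1 replicate 1 (exact p 0.0714 to 0.114). Of 18 other genes of developing or regenerating fibres in the table, LLC replicate 2 was the highest of the 17 mice for 1, the atrial and embryonic light chain Myl4 (1.496 TPM against at most 1.36), where over all genes past the filter it was the highest for 2.45%. It was the lowest for 1 of the 18, Myod1, a driver of myogenic differentiation (8.34 TPM against at least 9.60).

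Within the chromosome 11 cluster, 2 long non-coding genes passed the filter. They were looked at for their position, after the values of the members were known. 2310065F04Rik, a lincRNA on the minus strand between Myh3 and Myh2 (chr11:67112461-67120080), held 46.0, 59.1, 61.2, 45.7 and 61.4 TPM in Control and 37.4, 38.2 and 34.7 TPM in LLC. It fell by 0.55 ± 0.16 in LLC vs Control (adjusted p = 0.0179) and by 0.49 ± 0.11 over both tumor groups (adjusted p = 0.00369). LLC + rFibcd1 mice, at 30.9, 40.9, 55.5 and 47.5 TPM, overlapped Control, and that difference of -0.33 ± 0.14 did not pass (adjusted p = 0.216). 9430073C21Rik (chr11:67195680-67199234), antisense to the end of Myh2 and without overlap of Myh1, held 5.40, 6.90, 7.73, 5.75 and 7.73 TPM in Control, 4.78, 5.05 and 4.89 in LLC and 4.20, 4.89, 5.21 and 4.38 in LLC + rFibcd1. Every tumor-bearing mouse was below every tumor-free mouse, as in 0.526% of all genes. It fell by 0.50 ± 0.073 over both tumor groups (adjusted p = 0.000615), by 0.37 ± 0.11 in LLC vs Control (adjusted p = 0.0192) and by 0.43 ± 0.099 in LLC + rFibcd1 vs Control (adjusted p = 0.0291). Its overlap with Myh2 could exchange reads with that gene if counting ignored the strand, and the sources do not settle whether it did.

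The other myosin heavy chain genes in the table were not skeletal fibre isoforms of adult limb or diaphragm, and 5 of 8 passed the filter. Myh9, the non-muscle heavy chain A of blood, vessel and connective tissue cells, held 19.7 to 24.6 TPM in Control and 31.1 to 38.1 TPM in LLC and rose by 0.65 ± 0.15 (adjusted p = 0.0113). Myh11, the smooth muscle heavy chain, rose by 0.77 ± 0.28 (adjusted p = 0.0474), but LLC replicate 3 alone held 61.6 TPM and the other LLC mice 18.1 and 17.2 TPM, against 14.7 to 16.4 in Control. The differences were 0.25 ± 0.10 for Myh10, -0.13 ± 0.10 for Myh14 and 0.0020 ± 0.20 for Myh7b, and none of the 3 passed. So 2 of the 5 rose in LLC vs Control, where 29.7% of all genes did. Over both tumor groups 1 rose, Myh9 (0.56, adjusted p = 0.00192), where 38.8% of all genes did, and Myh11 missed the threshold (0.44, adjusted p = 0.0711). Myh6 lay between 0.251 and 1.39 TPM, Myh13 at or below 0.0303 TPM and Myh15 at or below 0.0371 TPM. The highest Myh6 value stands against a lowest value of 236 TPM for Myh7, with which it shares windows.

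Most of the listed genes that accompany the fast isoforms were lower, as was Myh1 among these isoforms. Without LLC replicate 3, the fibro-adipogenic marker Ly6a was the 1 gene of the lists described from here on that passed in LLC vs Control, so those counts depended on that library, as did the count over all genes. As deposited, 6.02% of all genes fell and 29.7% rose in LLC vs Control, and 5.98% and 38.8% over both tumor groups. The counts of each list stand against these shares, and counts under another setting against the shares of that setting. In LLC vs Control without LLC replicate 1 the shares were 3.75% lower and 13.3% higher. Of 12 fast fibre genes, 8 fell and 0 rose in LLC vs Control, and 11 fell and 0 rose over both tumor groups. Without LLC replicate 1, 6 fell in LLC vs Control. Their median difference was -0.23 and -0.34, against 0.16 and 0.13 over all genes. Over both tumor groups 11 of the 12 also fell without LLC replicate 3 and with median-ratio scaling, and 8 with quantile normalization, with 0 rising in each. In these settings 4.36%, 18.3% and 25% of all genes fell. Named by the smallest p in LLC vs Control, Tnnt3 (fast troponin T) fell by 0.29 ± 0.051 (adjusted p = 0.00808), Tpm1 (alpha tropomyosin) by 0.35 ± 0.063 (adjusted p = 0.00808) and Tnni2 (fast troponin I) by 0.29 ± 0.059 (adjusted p = 0.00942). Of 12 slow fibre genes, 0 rose and 1 fell in LLC vs Control, Casq2 (cardiac and slow calsequestrin), by 0.39 ± 0.10 (adjusted p = 0.0151). Over both tumor groups 1 slow fibre gene rose and 0 fell. That gene, singled out after its value was seen, was Atp2a2, the slow and cardiac calcium pump (0.40, adjusted p = 0.00879), and with median-ratio scaling or quantile normalization 0 genes of the list rose and 1 fell. The slow list had medians of -0.028 and 0.065.

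**Figure D5:**
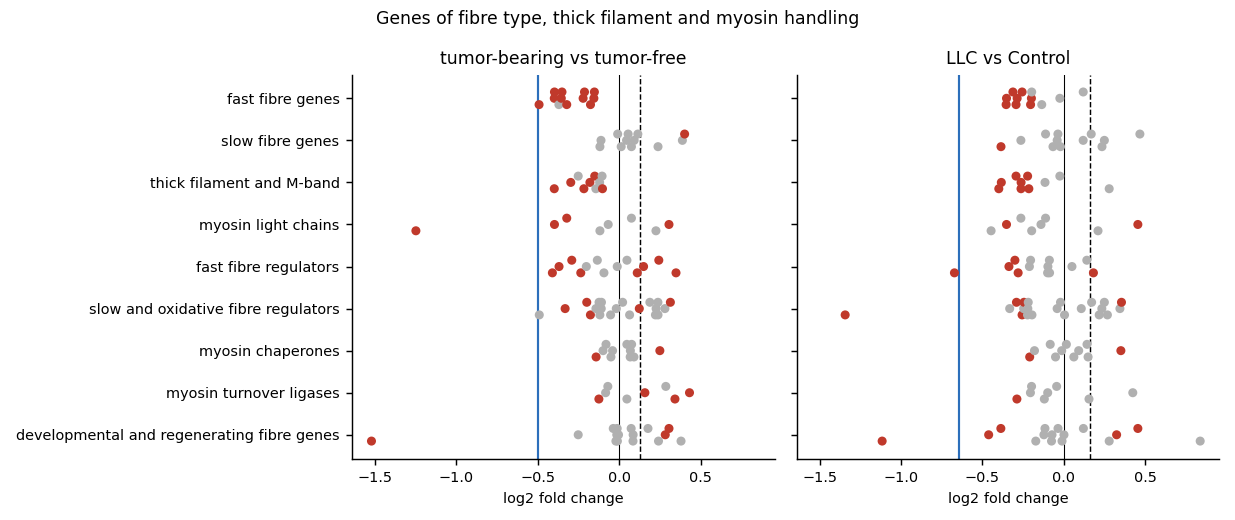
Log2 fold changes (horizontal axis, log2(TPM + 1) scale) of genes in 9 lists, in tumor-bearing vs tumor-free (left) and LLC vs Control (right). Each point is 1 gene, red where the adjusted p was below 0.05, and a few genes stand in 2 lists. The blue line is Myh1, the dashed line the median of all genes: fast fibre and thick filament genes lie mostly left of 0, and slow fibre genes on both sides of it.

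Of 10 tested genes of the thick filament and M-band, 7 fell and 0 rose in LLC vs Control (median -0.24), where 6.02% of all genes fell. Over both tumor groups 6 fell and 0 rose (median -0.17), where 5.98% of all genes fell. With median-ratio scaling 9 fell and 0 rose over both tumor groups, where 18.3% of all genes fell. Without LLC replicate 1, 3 fell in LLC vs Control. Myom3, a myomesin of the M-band, fell by 0.38 ± 0.093 (adjusted p = 0.0122) and Obsl1, a cytoskeletal adaptor of the M-band, by 0.22 ± 0.063 (adjusted p = 0.0179). Of 8 genes of myosin light chains and their kinases, 1 rose and 1 fell in LLC vs Control, where 29.7% of all genes rose and 6.02% fell. Mylpf, the fast regulatory light chain, fell by 0.35 ± 0.077 (adjusted p = 0.0106), and Myl4 rose by 0.46 ± 0.10 (adjusted p = 0.0111). Over both tumor groups 1 rose and 3 fell. Picked afterwards for its size, the kinase gene Mylk4 fell by 1.25 over both tumor groups (adjusted p = 0.00109), from 116 ± 34.8 TPM in Control to 83.0 ± 18.5 in LLC and 38.6 ± 17.4 in LLC + rFibcd1.

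Among 13 regulators of fast fibre genes, 4 fell and 1 rose in LLC vs Control, and 4 fell and 4 rose over both tumor groups. The rising genes were a smaller share of the list than the 29.7% and 38.8% of all genes, and the falling ones a larger share than 6.02% and 5.98%. Without LLC replicate 1, 2 fell in LLC vs Control. Mafa, a large Maf factor linked to IIb fibres, fell by 0.67 ± 0.13 (adjusted p = 0.00926), Tbx15, a T-box factor of glycolytic fibres, by 0.34 ± 0.069 (adjusted p = 0.00969) and Six4, a homeobox factor, by 0.30 ± 0.095 (adjusted p = 0.0259). Among 21 regulators of slow and oxidative fibre genes, 4 fell and 1 rose in LLC vs Control, and 3 fell and 2 rose over both tumor groups, again fewer rising and more falling than the shares of all genes. Without LLC replicate 1, 1 fell in LLC vs Control. Nfatc1, a calcineurin target in slow fibres, rose by 0.35 ± 0.089 (adjusted p = 0.0129), while Ppp3cb, a calcineurin subunit, fell by 0.24 ± 0.064 (adjusted p = 0.0143) and Myoz1, a calcineurin-binding protein of fast fibres, by 0.29 ± 0.081 (adjusted p = 0.0171). The medians in LLC vs Control were -0.099 for the fast and -0.041 for the slow regulators. The rising calls depended on the scaling: with median-ratio scaling 0 fast regulators rose and 6 fell over both tumor groups. Of all genes, 17.8% rose and 18.3% fell there.

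Of 11 myosin chaperone genes 1 rose and 1 fell in LLC vs Control, against 29.7% and 6.02% of all genes: Unc45a, the general form of the myosin chaperone, rose by 0.35 ± 0.10 (adjusted p = 0.0194) and Smyd1, a muscle methyltransferase that acts with it, fell by 0.21 ± 0.069 (adjusted p = 0.0301). Of 8 ubiquitin ligases linked to thick filament turnover, 0 rose and 1 fell, Trim55 (MuRF2), by 0.29 ± 0.067 (adjusted p = 0.0113). Over both tumor groups Trim55 also fell, by 0.13 (adjusted p = 0.0362), and 3 of the 8 ligases rose, against 38.8% of all genes. With median-ratio scaling, quantile normalization or rescaling without mitochondrial genes 0 rose, where 17.8%, 13.7% and 24.6% of all genes did. The 3 rising ligases, named after their values were seen, were Trim63 (MuRF1, 0.43, adjusted p = 0.039), Fbxo32 (atrogin-1, 0.34, adjusted p = 0.0287) and Trim32 (0.16, adjusted p = 0.0294). Trim63 held 99.1 ± 18.1 TPM in Control, 92.1 ± 15.2 in LLC and 158 ± 43.6 in LLC + rFibcd1, and the difference of LLC + rFibcd1 from LLC did not pass (0.74 ± 0.25, adjusted p = 0.182).

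Of 16 tested genes of developing and regenerating fibres, 2 rose and 3 fell in LLC vs Control, against 29.7% and 6.02% of all genes. Besides Myl4, the rule named Actc1, the cardiac and fetal alpha-actin, which fell by 1.12 ± 0.32 (adjusted p = 0.0186), and Sln (sarcolipin, an inhibitor of the calcium pump), which fell by 0.46 ± 0.16 (adjusted p = 0.0344). Sln was the single gene of all the pathway lists that passed in LLC + rFibcd1 vs LLC, where it rose by 0.99 ± 0.16 (adjusted p = 0.0334), from 679 ± 189 to 1336 ± 228 TPM. That call was lost in 13 of 25 alternatives (adjusted p 0.0501 to 0.55), among them median-ratio scaling (adjusted p = 0.0562), the fit of these 2 groups alone (adjusted p = 0.297), and the fits without LLC replicate 1 (adjusted p = 0.170) or 3 (adjusted p = 0.236) or LLC + rFibcd1 replicate 1 (adjusted p = 0.126).

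Markers of fibres and of other cell types were examined as well. All 8 skeletal fibre markers averaged at least 1 TPM in every group, and their summed TPM was 37923 to 40093 in LLC against 43471 to 47023 in Control. Of these 8, 5 fell in LLC vs Control: Ckm (muscle creatine kinase) fell by 0.27 ± 0.052, Cacna1s by 0.33 ± 0.068 and Mb (myoglobin) by 0.30 ± 0.063. The part of fibre content in the lower Myh1 level was not tested, and in whole muscle fewer fibres of a type and less RNA per fibre cannot be told apart. All 8 B cell markers and all 8 T cell markers rose in LLC vs Control, where 29.7% of all genes did, but without LLC replicate 1 it was 0 and 4. Summed B cell markers ranged from 2.48 to 104 TPM in Control, 240 to 308 in LLC and 18.9 to 304 in LLC + rFibcd1. All 5 tested neutrophil markers rose, as did 4 of 8 macrophage markers, 3 of 6 smooth muscle markers and 2 of 8 endothelial markers, the last below the share of all genes. Without LLC replicate 1, 4 neutrophil, 0 macrophage, 3 smooth muscle and 2 endothelial markers rose, where 13.3% of all genes did. With median-ratio scaling 6 B cell, 8 T cell, 4 neutrophil, 2 macrophage, 0 smooth muscle and 0 endothelial markers rose, where 14.4% of all genes did. In tumor-bearing vs tumor-free, 7 of 8 endothelial markers rose, against 38.8% of all genes. It was also 7 without LLC replicate 3, and 3 with median-ratio scaling, against 26.9% and 17.8% of all genes. The summed TPM of the endothelial markers was 241 to 266 in Control, 217 to 255 in Control + rFibcd1, 258 to 297 in LLC and 306 to 327 in LLC + rFibcd1. Markers of fibro-adipogenic progenitors, mesenchymal cells of muscle connective tissue, summed to 1362 to 1376 TPM in LLC against 875 to 1173 in Control, and to 922 to 1497 in LLC + rFibcd1. The LLC and Control sums did not overlap, as was true in the higher direction for 33.6% of all genes. Of these 8 markers 2 rose in LLC vs Control, below the 29.7% of all genes. They were Ly6a, by 0.89 ± 0.13 (adjusted p = 0.00572, and 0.0474 without LLC replicate 3), and Pi16, by 0.43 ± 0.10 (adjusted p = 0.0115). Of 6 tested satellite cell markers 1 rose in LLC vs Control, the adhesion molecule Vcam1, which endothelium also makes (0.92 ± 0.23, adjusted p = 0.0128), and 0 of 8 mesothelial and 0 of 6 Schwann and nerve markers passed. Over both tumor groups 1 mesothelial marker (Wt1) and 2 Schwann and nerve markers (Pmp22 and Mbp) rose, where 38.8% of all genes did. No adipocyte marker of 8 passed in LLC vs Control, and over both tumor groups 1 rose, the adipsin gene Cfd (1.47 ± 0.53, adjusted p = 0.0356), though not without LLC replicate 1. Their summed TPM was 1936 to 8308 in LLC against 846 to 3135 in Control. Cardiac markers summed to 2.10 to 8.98 TPM over all mice. The part of these cells in the isoform levels was not tested. Mitochondrially encoded genes took 47.1% ± 1.09 of TPM in Control and 42.9% ± 1.53 in LLC. With these genes left out and TPM rescaled, Myh1 differed by -0.75 in LLC vs Control (adjusted p = 0.00797).

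Across mice, the genes most like each isoform were found by Pearson's r of log2(TPM + 1) after each group's mean was subtracted, over 17 mice and 13304 genes. These values describe shared variation within groups, which also carries each library's scaling and composition. Myh7 varied with the slow troponin T gene Tnnt1 (r = 0.98) and the slow light chains Myl3 (0.97) and Myl2 (0.96). Myh2 varied with Tpm2, beta tropomyosin (0.91), Coro6 (0.90) and Vdac1, a channel of the outer mitochondrial membrane (0.87). Myh4 varied with the fast myosin-binding protein Mybpc2 (0.83), the calcium buffer Pvalb (0.81) and Katnal2 (0.81). The genes nearest to Myh1 were Ogdh, an enzyme of the citric acid cycle (0.85), Tor1aip1 (0.84) and Evc2 (0.84). Between members, r was 0.74 for Myh2 and Myh7, 0.47 for Myh4 and Myh7, 0.14 for Myh1 and Myh2, and -0.55 for Myh1 and Myh4.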

How the data were processed

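RNA from the diaphragm of 17 mice was sequenced, 1 library per mouse. The deposited values are transcripts per 1000000 (TPM) per gene symbol, which the authors made with CLC Genomics Workbench from reads mapped to the mouse genome GRCm38 (mm10). The sources differ on the library kit, so it is not known whether counting used the strand. TPM sum to the same total in every sample, so a large change in abundant genes moves all others.

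Groups were taken from the sample labels. Values were analysed as log2(TPM + 1) for the 13305 genes that reached 1 TPM in 3 or more samples, in limma 3.58.1 (R 4.3.3) with the 4 groups in 1 model, a mean-variance trend and Benjamini-Hochberg adjustment over all genes tested (threshold 0.05). Group differences come from contrasts of this model, with tumor-bearing vs tumor-free as the 7 mice of both tumor groups against the 10 of both Control groups, each mouse weighted equally. Isoform shares were tested by two-sided exact permutation over mice. Members below the filter were tested the same way on TPM, an alternative chosen after seeing the data. The p-values set group differences against the spread between these mice.

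The members and gene lists were chosen with earlier results of these data known. In each list, up to 3 genes with the smallest p in LLC vs Control among those that passed were named, and any others are said to be chosen afterwards. A gene of the thick filament list that this rule picks is not reported here. Whole reads were recovered from the steps between low TPM values and gene lengths: 81.2% to 83.9% of low values came out whole within 0.02 of a read. These reads show depth and counting error only, and were not tested as counts. The model was tested on simulated data with known changes. Gene positions came from GENCODE vM21 (GRCm38) and promoters from RefSeq (GRCm38.p6), with Python 3.11.15, pandas 2.3.3 and Biopython 1.88. Alternatives changed the pseudocount, the filter, the scaling, the samples in the fit, the test and the block, or left out each mouse in turn. Gene list counts under other settings were added after seeing the data.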

Additional observations from a re-analysis of the deposited data

Results flagged for a closer look

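In 39 sets of values, levels and shares in the 3 groups of 4 or 5 mice, 2 held a mouse far from the rest of its group, where chance gives about 1 in 20. The 3 LLC mice were too few for this check and were left out of it. In Control + rFibcd1 replicate 1 Myh2 made up 15.5% of the summed TPM of the 6 genes, and the gap to the nearest mouse was 0.795 of the range of the 5 mice. In LLC + rFibcd1 replicate 2 Myh7 made up 4.48% of the sum, with a gap of 0.926 of the range of the 4 mice.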

How the results depend on the processing

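Myh1 was lower in tumor-bearing than in tumor-free mice under every alternative run (-0.66 to -0.47, adjusted p 0.00104 to 0.0131) and with each mouse left out (-0.57 to -0.44). The LLC vs Control call of Myh1 held under the other pseudocount, no filter, 3 scalings, the fit of the 2 groups alone and Dunn's unadjusted test. It was lost with the replicate block (-0.62, adjusted p = 0.0596) and with Dunn's test after adjustment (adjusted p = 0.118), so that 0 members were called, when the genes called over the whole table were 5 and 0 of 13305. Without 1 mouse its values ranged from -0.71 to -0.54 and the members called from 0 to 1. In LLC + rFibcd1 vs Control, Dunn's rank test without adjustment called 1 member, Myh1, and leaving out mice gave 0 to 1.

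Replicate numbers did not pair the mice: over 22 pairs with the same number the correlation of deviations ran from -0.459 to 0.485 (median -0.061, 4 over 0.1), and 1 of 17 mice correlated best with its own number. With the replicate block the genes called went from 5963 to 3782 in tumor-bearing vs tumor-free, 4759 to 5 in LLC vs Control, 15 to 0 in LLC + rFibcd1 vs LLC and 410 to 173 in LLC + rFibcd1 vs Control.

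The shares with an exact p below 0.05 went from 5 to 3 among the 4 adult isoforms and to 2 as log ratios in tumor-bearing vs tumor-free, from 3 to 1 and 1 in LLC vs Control, and from 4 to 2 and 1 in LLC + rFibcd1 vs Control; the first of these settings tests 4 isoforms in place of 6. Without 1 mouse the counts were 4 to 5, 1 to 5 (5 without Control replicate 1, 1 without LLC replicate 2) and 2 to 3.

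The Myh7 share in LLC vs Control, which passed (exact p = 0.0357), changed sign as a log ratio (-0.014, exact p = 0.929), and it missed the threshold without any 1 of Control replicates 2 to 5 or LLC replicates 1 and 2 (exact p 0.0571 to 0.0952). The other sign changes concerned differences that passed no test. In tumor-bearing vs tumor-free, median-ratio scaling, quantile normalization and rescaling without mitochondrial genes gave Myh2 -0.14, -0.053 and -0.061, Myh4 -0.15, -0.013 and -0.069, and Myh7 -0.12, -0.037 and -0.041. The same 3 gave Myh2 -0.020, -0.086 and -0.0084 in LLC + rFibcd1 vs Control. The replicate block gave Myh4 -0.063 in tumor-bearing vs tumor-free and Myh7 0.026 in LLC vs Control. In Control + rFibcd1 vs Control, median-ratio scaling gave Myh1 0.038 and Myh2 0.018 and quantile normalization Myh1 0.0046. As log ratios, Myh2 was -0.078 in LLC vs Control, Myh7 -0.080 in Control + rFibcd1 vs Control and Myh4 -0.012 in LLC + rFibcd1 vs Control. In TPM without LLC replicate 2, LLC + rFibcd1 exceeded LLC by 0.063 for Myh3 and 0.034 for Myh8.

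With each mouse left out, fitted differences that changed sign ranged as follows. In tumor-bearing vs tumor-free the range was -0.024 to 0.056 for Myh2, -0.19 to 0.22 for Myh4 and -0.028 to 0.13 for Myh7. For Myh7 it was -0.059 to 0.039 in LLC vs Control, -0.023 to 0.29 in LLC + rFibcd1 vs LLC, -0.12 to 0.10 in Control + rFibcd1 vs Control, -0.031 to 0.28 in LLC + rFibcd1 vs Control and -0.041 to 0.27 in the interaction. In Control + rFibcd1 vs Control it was -0.11 to 0.0086 for Myh1 and -0.11 to 0.038 for Myh2, and in LLC + rFibcd1 vs Control -0.038 to 0.12 for Myh2 and -0.53 to 0.16 for Myh4. Shares ranged, in percentage points, from -0.0040 to 0.00095 (Myh3) and -0.0030 to 0.00057 (Myh8) in LLC + rFibcd1 vs LLC, from -5.19 to 0.32 (Myh1), -1.63 to 0.099 (Myh2) and -0.36 to 0.30 (Myh7) in Control + rFibcd1 vs Control, and from -2.18 to 2.36 (Myh4) in LLC + rFibcd1 vs Control. Myh3 rested on few reads, 5 to 107 per mouse, with LLC replicate 2 far above the rest, and Myh4 varied widely between few mice.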
